A study of Homo sapiens with 16 samples.

Results

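The γδ T cells described here are the cells that the deposited annotation names Tgd in single-cell RNA sequencing of mouse mammary tumors. Of 48824 cells, 611 carried that name once each 16-base cell barcode that recurred between long-term pools was counted a single time, at its deepest copy (615 of 53946 cells as deposited). The tumors were LPA1-T22 (T22) and LPA1-T127 (T127), syngeneic transplant models derived from mice that express the LPA1 receptor in the mammary epithelium, and chunks of them were grown in the mammary fat pad of female FVB mice bought at 6 weeks of age. In the short-term experiment, 4 pools of T22 and 4 pools of T127 tumors held cells of mice given vehicle or the PARP inhibitor olaparib (50 mg/kg daily) for 4 or 8 days. The labels place the start of treatment 14 days after transplantation for T22 and 10 days for T127, and the sources differ on the T127 interval in the short-term experiment. In the long-term experiment, 8 pools held T22 and T127 tumors grown alone or in the same mouse, from mice given vehicle or olaparib at the same dose for 20 days. Each of T22 and T127 is 1 tumor model, dead cells had been depleted with Annexin V, and the labels name the organism as human although the genes and hosts are those of the mouse. The tumor of origin of each cell is not given in the sources used here, and vehicle was therefore not compared with olaparib. Each pool mixed tumors, and whether pools of an experiment held the same or different tumors is not given in the labels, so each experiment counts as 1 sample, no test was run and no p-value is given. Values are unique molecular identifiers (UMIs, 1 per captured transcript) summed over the cells of a cluster, per 1000000 UMIs of that cluster (CPM), with 95% intervals that cover counting error only.

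T cells recognise their targets through a receptor made either of α and β chains or of γ and δ chains, and the constant parts of the δ and α chains are encoded by Trdc and Trac, and the δ locus lies within the α locus. γδ T cells are sparse in lymph nodes and enriched in barrier tissues, where subsets that carry given γ and δ segments are committed early either to IL-17 or to interferon γ and killing. The pairing of Vγ6 with the δ segment encoded by Trdv4 is known from an innate-like subset that makes IL-17. NK cells can also carry transcripts of the unrearranged δ locus, so a Trdc UMI alone does not define a γδ T cell.

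Tgd cells were a small part of the lymphocytes in each experiment. The T22 pools held 94, 95, 88 and 110 of them, the T127 pools 4, 6, 1 and 6, and the long-term pools 23, 15, 10, 23, 26, 53, 26 and 31. They made up 8.24% of the 4698 T and NK cells of the T22 pools (95% interval 7.47% to 9.06%), 3.21% of 530 in T127 (1.88% to 5.09%) and 11.3% of 1839 in the long-term pools (9.85% to 12.8%). Across pools the share ran from 7.46% to 9.13% in T22, from 0.714% to 5.56% in T127 and from 5.18% to 15.9% in the long-term experiment, so the T127 pools lay below the T22 pools, and the long-term pools reached from below the lowest to above the highest T22 pool. As a share of all cells the values were 2.56%, 0.212% and 0.805%. The median Tgd cell held 7872 UMIs in T22, 8711 in T127 and 5643 in the long-term pools, whose total depth per pool was 32298013 to 43985662 UMIs, beside 40270841 to 42436039 in T22 and 49690430 to 55600377 in T127. Among the long-term pools, 3939 barcodes recurred between pools 1 and 2, 987 between 1 and 3, and 1082 between 2 and 3. Counting each barcode once removed 4 Tgd copies, 1 of which was also Tgd in its deeper copy, and 11 removed copies with another cluster name had a deeper copy named Tgd.

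**Figure D1:**
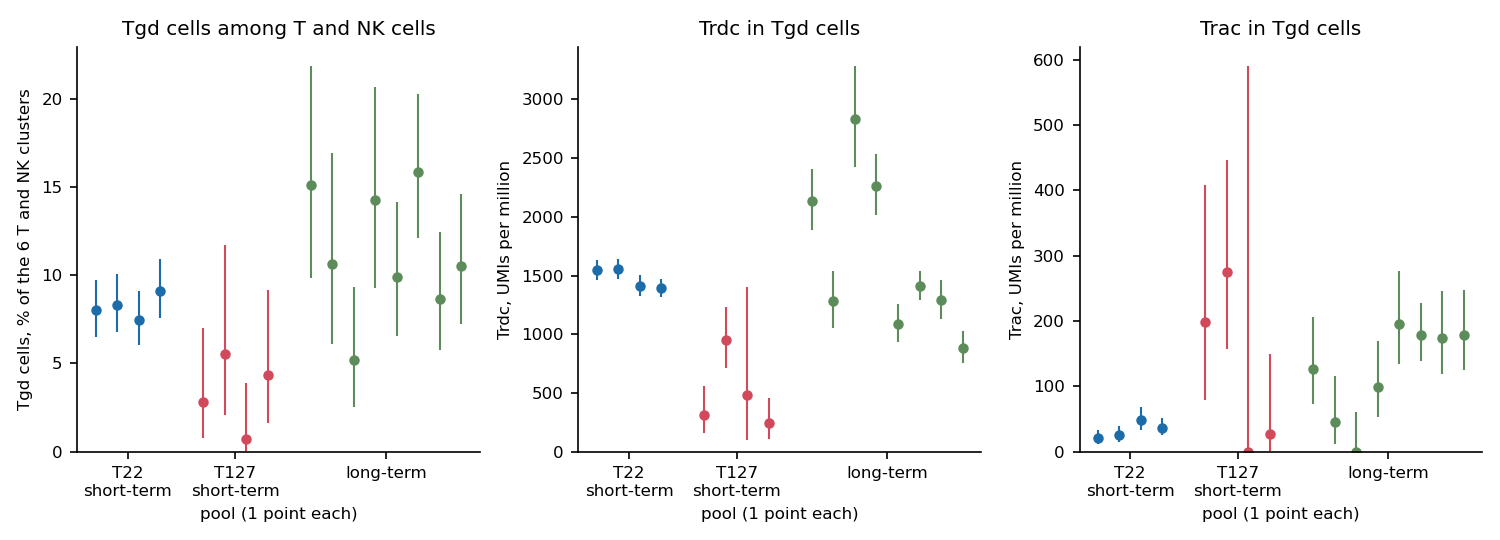
Tgd cells in the 16 pools. The panels plot Tgd cells as a percentage of T and NK cells, the Trdc level and the Trac level (CPM) of each pool with 95% counting intervals. T22 pools sit between 7.46% and 9.13% with Trdc from 1392 to 1554 CPM, while T127 pools rest on 1 to 6 cells each.

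Trdc and Cd3e were high in the Tgd cells of T22 and the long-term pools and lower in those of T127. Since every T22 Tgd cell held Trdc, which may have been required for the name, its level there does not check the label. Trdc stood at 1546, 1554, 1414 and 1392 CPM in the T22 pools, at 311, 947, 480 and 242 CPM in the T127 pools, and from 883 to 2831 CPM (median 1349 CPM) in the long-term pools. All T22 pools were above all T127 pools, while the long-term pools overlapped T22, and T127 only where its pool 2 passed the lowest long-term pool. Pooled, Trdc was 1476 CPM in T22 (1434 to 1518), 570 CPM in T127 (450 to 711) and 1486 CPM in the long-term experiment (1421 to 1553). Cd3e, a chain of the CD3 complex that carries the signal of either receptor, was 1029 CPM in T22, 841 CPM in the long-term pools and 175 CPM in T127. In the long-term pools it stood at 823 CPM in CD4_Tcm-TCF7, the largest T cell cluster, and at 97.6 CPM in NK.cells. T127 Tgd cells therefore held less Cd3e than CD4_Tcm-TCF7 cells of the same tumors (418 CPM) and more than NK.cells (17 CPM). Trac was 32 CPM in T22 (26.1 to 38.9), 150 CPM in the long-term pools (130 to 173) and 175 CPM in T127 (112 to 261), where it was absent from pool 3 and reached 275 CPM in pool 2. Values of the 17 T127 cells rest on few cells, and without pool 2 their Trdc level was 292 CPM, Trac 101 CPM and Cd3e 114 CPM.

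Against the other lymphocytes, Trdc in Tgd was 11.4-fold that of CD4_Tcm-TCF7 in T22 (10.8 to 12) and 10.8-fold in the long-term pools (9.82 to 11.9). It was 5.54-fold that of NK.cells in T22 (5.28 to 5.82) and 6.91-fold in the long-term pools (6.21 to 7.71), and in none of these 4 pairs did the pool ranges overlap. Since the cells had been clustered on their genes, these ratios describe the cluster and do not test it. Trac was lower than in CD4_Tcm-TCF7 by a factor of 13 in T22 (10.7 to 16) and of 5.54 in the long-term pools (4.8 to 6.42).

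Cell by cell, the experiments differed in the share of Tgd cells that held Trdc. Each of the 387 T22 Tgd cells held at least 1 Trdc UMI (27 cells held 1, 24 held 2 and 336 held 3 or more), with 341 cells having Trdc alone, 46 Trdc and Trac, and 0 Trac alone or neither. Of the 207 long-term cells, 162 (78.3%) held Trdc: 139 had Trdc alone, 23 both, 33 Trac alone and 12 neither. Of the 17 T127 cells, 8 (47.1%) held Trdc, all without Trac, 4 held Trac alone and 5 neither. Whether a Trdc UMI had been required when T22 cells were named is not given in the sources used here. The median depth of the 45 long-term cells without Trdc was 4493 UMIs, beside 5818 UMIs in the 155 cells with 3 or more.

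The same order held after thinning every cell to 2000 UMIs, which left out 1 T22 and 4 long-term cells. The share of cells with Trdc was then 87.8% in T22, 74.9% in the long-term pools and 23.5% in T127, where 52.9% had neither transcript. At full depth a Trdc UMI was found in 0.746% of Macro-M2 cells of T22 (median 13221 UMIs), in 0.617% of long-term Macro-M2 cells (11168 UMIs), in 1 of 38 B.cells of T22 (2.63%, 2862.5 UMIs) and in 0 of 309 long-term B.cells (2082 UMIs). Tgd shares thus lay far above those of these cell types, which should lack the gene. Trdc may have been required for the name in T22, so this does not check the label. At full depth NK.cells held a Trdc UMI in 58.8% of cells in T22 and 58% in the long-term pools. In T127 the share was 63.1% in NK.cells, above the 47.1% of Tgd cells. Of all Trdc and Trac UMIs in Tgd cells, Trdc took 97.9% in T22 (97.4% to 98.3%), 90.8% in the long-term pools (89.5% to 92%) and 76.5% in T127 (67% to 84.3%). In CD4_Tcm-TCF7 that share was 23.6%, 14.2% and 32%, and in NK.cells 81.4%, 69.1% and 92.3%, in the order T22, long-term and T127. The NK.cells share was thus below that of Tgd in T22 and the long-term pools and above it in T127.

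**Figure D2:**
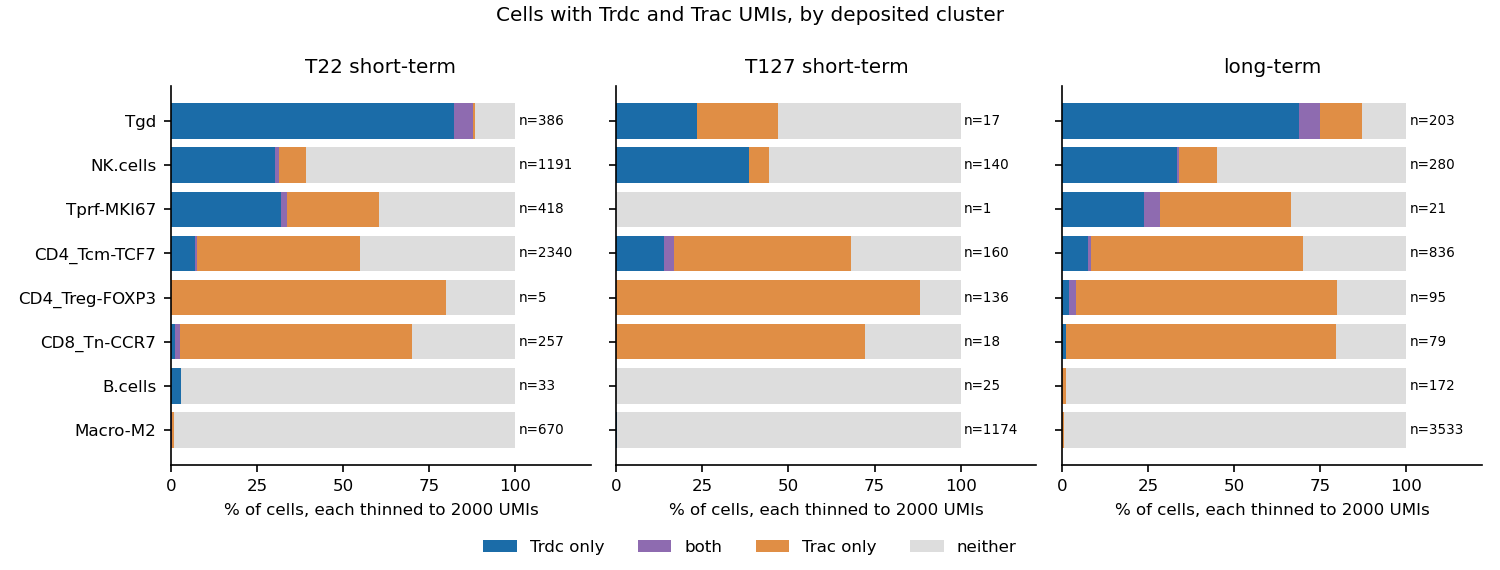
Receptor transcripts per cell. Stacked bars give the percentage of cells of each cluster with Trdc only, both, Trac only or neither after thinning to 2000 UMIs, for the 3 experiments. T22 Tgd cells mostly carry Trdc (87.8%), long-term Tgd cells include 12.3% with Trac only, and thinned NK.cells carry Trdc only in 30.4% to 38.6%.

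Much of the Trdc signal lay outside the Tgd cluster. Tgd cells held 35.5% of all Trdc UMIs in T22, where Tprf-MKI67, the cluster of proliferating T cells, held 25.8%, NK.cells 18.6% and CD4_Tcm-TCF7 16%. In the long-term pools Tgd held 54.5%, CD4_Tcm-TCF7 15.6% and NK.cells 11.2%, and in T127 NK.cells held 56.9%, CD4_Tcm-TCF7 25% and Tgd 12.4%. Cells with 3 or more Trdc UMIs and no Trac UMI numbered 911 in T22, of which 292 were Tgd, 314 NK.cells, 151 CD4_Tcm-TCF7 and 133 Tprf-MKI67. There were 266 such cells in the long-term pools, 134 of them Tgd, and 67 in T127, 7 of them Tgd.

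In T22, the γδ genes were higher in the Trdc-bearing cells filed under T cell names than in those filed as NK.cells. Tcrg-C1, a constant segment of the γ chain, was at 749 CPM in the 292 Tgd cells, 516 CPM in the CD4_Tcm-TCF7 cells, 698 CPM in the Tprf-MKI67 cells and 40 CPM in the NK.cells. Trdv4 stood at 502, 351, 437 and 44.8 CPM in the same order, and Cd163l1, a scavenger receptor (SCART) of γδ T cells, at 662, 439, 634 and 21.4 CPM. Cd3e was 1123, 1038, 889 and 87.8 CPM. Ncr1, which encodes the NK receptor NKp46, was 62.1, 152, 81.3 and 912 CPM in that order, and Gzma, a granzyme, 176, 389, 562 and 5044 CPM. Both were lowest in the Tgd cells, and between Tgd and NK.cells in the other T cell clusters. In T127, the 13 such cells of CD4_Tcm-TCF7 held 86.3 CPM of Tcrg-C1, 28.8 CPM of Trdv4, 0 CPM of Cd163l1 and 561 CPM of Ncr1. The 45 such NK.cells of T127 held 4.97, 19.9, 9.94 and 999 CPM.

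Genes were then compared between Tgd and the other T and NK clusters, calling a gene at 2-fold or more (5 CPM added to both sides) when it reached 10 CPM in either. In the long-term pools 36 of 8399 genes (0.429%) were called over the highest of the 5 other clusters, and in T22 19 of 8625 (0.22%). Of these, 9 genes were called in both experiments, which is 25% of the long-term and 47.4% of the T22 calls. The highest other cluster was most often Tprf-MKI67, which held 21 cells in the long-term pools and 418 in T22. In T22, CD4_Treg-FOXP3 held only 5 cells, in which 1 UMI is worth 47.5 CPM, the level that the gene Irak3 was compared with. Leaving out Tprf-MKI67, a choice made after seeing the data, gave 70 and 75 called genes. A minimum of 50 CPM gave 17 genes in the long-term pools, and in T22 a pseudocount of 1 CPM gave 38 and leaving out mitochondrial and ribosomal protein genes 31.

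The 25 leading genes of the long-term pools were headed by Cd163l1, at 285 CPM in Tgd and 28.5 CPM in the next cluster (log2 ratio 3.12). After it came the δ chain genes Trdc (2.40) and Trdv4 (2.23), the γ chain genes Tcrg-V6 (2.39), Tcrg-C4 (1.83), Tcrg-C1 (1.66), Trgv2 (1.51) and Tcrg-C2 (1.31), and Blk, a Src family kinase (1.63). The γ constant segments are near-identical copies, so the split between Tcrg-C1 and Tcrg-C2 is uncertain, and introns were counted, so an unrearranged segment can add to a level. Others were Il1r1, the receptor of IL-1 (1.28), Sox13, a transcription factor of the γδ lineage (1.11), Tmem176b and Tmem176a, membrane proteins (1.22 and 1.07), Mmp25, a membrane metalloproteinase (1.73), Kcnk1, a potassium channel (1.75), Irak3, an inhibitor of IL-1 signalling (1.39), and Upp1, a uridine phosphorylase (1.65). The remaining leading genes were Rbpms2, Cdk14, Gm9961, Hacd4, Gstm5, Actn2, Wtip and Prxl2a, with log2 ratios between 1.07 and 1.96. Leaving out 1 long-term pool took 7 of these genes below 2-fold: Tcrg-C2 (0.88) and Tmem176a (0.92) without pool 5, Il1r1 (0.78) without pool 6, Actn2 without pool 2 or 8 (0.93 and 0.87), Sox13 without pool 5, 7 or 8 (0.87 to 0.99), Wtip without pool 5, 6, 7 or 8 (0.73 to 0.93) and Prxl2a without pool 4, 6, 7 or 8 (0.90 to 0.98). Of the 25 genes, 8 were also called in T22, among them Cd163l1 (599 against 264 CPM in Tprf-MKI67), Trdc, Tcrg-V6, Trdv4 and Sox13, while Mmp25 (without pool 3) and Wtip (without pool 2 or 4) fell just below 2-fold there, and the other 17 were higher in Tgd than in every other cluster by less than the fold rule asks.

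Against CD4_Tcm-TCF7 in the long-term pools, 132 of 7248 genes were called higher in Tgd (1.82%) and 189 lower (2.61%), and in T22 101 of 7669 (1.32%) and 90 (1.17%). Against NK.cells the counts were 391 (5.42%) and 283 (3.92%) of 7216 in the long-term pools and 353 (4.47%) and 389 (4.93%) of 7892 in T22. The lists of genes below are read against these shares.

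By the median ratio to the highest of the other clusters, γδ receptor genes set Tgd apart most among the lists. That list holds Trdc, which may have been required for the name in T22, so the rank describes the cluster and does not test it. Of 14 γδ receptor genes, 9 were high enough to compare with the highest of the other clusters, and 6 of these were called in the long-term pools and 3 in T22, with a median log2 ratio of 1.66 and 0.83, beside -0.47 and -0.46 over all genes compared. Trgv2, which was also called in the long-term pools, is not on that list. Of the 6, Tcrg-C2 fell below 2-fold without long-term pool 5. Trdv4 was 323 CPM in long-term Tgd (250 to 395 across pools), 32.1 CPM in CD4_Tcm-TCF7 and 37.3 CPM in NK.cells. Tcrg-C1 was 757 CPM (535 to 1300), 124 CPM and 19.7 CPM in the same clusters, and Tcrg-V6 30.2 CPM, 1.72 CPM and 0 CPM. Tcrg-V1 and Tcrg-V4, segments of other γδ subsets, were lower, at 41.5 and 12.3 CPM in T22 and 15.1 and 3.02 CPM in the long-term pools, and Trdv3 was not detected. None of the 3 αβ constant genes, the 14 CD3 and signalling genes and the 3 coreceptors was called over the highest cluster in either experiment. Trbc1 and Trbc2, the β constant genes, were nonetheless present in Tgd, at 1108 and 874 CPM in T22, and NK.cells held 1126 and 509 CPM, while Cd4 was 0 CPM and Cd8b1 0.314 CPM in T22 Tgd cells.

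Genes of IL-17 producing γδ T cells were high in Tgd and shared with other T cell clusters. All 16 listed genes were at least 2-fold higher in Tgd than in NK.cells in T22 and in the long-term pools, with a median log2 ratio of 3.30 and 3.01 beside -0.06 and 0.04 over all genes. Over CD4_Tcm-TCF7, 11 were called higher and 0 lower in the long-term pools, and 7 higher and 2 lower in T22. Over the highest of the 5 clusters, 5 were called in the long-term pools and 3 in T22, with a median log2 ratio of 0.03 and 0.32. Their summed level was 4145 CPM in T22 Tgd, 2578 CPM in Tprf-MKI67 and 2513 CPM in CD4_Tcm-TCF7, and in the long-term pools 3069 CPM in Tgd, 2622 CPM in CD4_Treg-FOXP3 and 2407 CPM in Tprf-MKI67. Il17a was 541 CPM in T22 Tgd, with 440, 792, 374 and 545 CPM in pools 1 to 4, and 148 CPM in CD4_Tcm-TCF7. Its UMIs came from 18.6% of the T22 cells and 15.5% of the long-term cells, whose pools ran from 11.4 to 1201 CPM. Long-term Il17a thus varied more between pools than T22 Il17a, and its range overlapped those of CD4_Tcm-TCF7 and NK.cells. Ccr6, a chemokine receptor of IL-17 producing cells, went the other way in T22, with 19.5 CPM in Tgd and 58.9 CPM in CD4_Tcm-TCF7, as did Il22 with 37.1 and 90.2 CPM.

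Cytotoxic genes were lower than in NK.cells. Of 13 cytotoxic and interferon γ genes compared, 12 were called lower than in NK.cells in each of both experiments and 0 higher, and all 10 NK receptor genes were lower. Gzma was 254 CPM in T22 Tgd and 3685 CPM in NK.cells (14.5-fold, 13.5 to 15.6), and Ncr1 115 and 883 CPM (7.7-fold, 6.94 to 8.58). Without T22 pool 2, where Gzma was 581 CPM, its level in Tgd was 150 CPM. Markers of other cell types were low in Tgd. The summed level of the 8 macrophage genes was 184 CPM in T22 and 258 CPM in the long-term pools, that of the 5 B cell genes 50.9 and 49.9 CPM, that of the 4 malignant cell genes 45.9 and 44.6 CPM, and that of the 4 fibroblast genes 182 and 89.2 CPM. Of the fibroblast genes, 2 of 4 were called over the highest of the other clusters in T22, and their sum was 547 CPM in pool 2 and 48 to 112 CPM in the other pools, or 66.1 CPM over the experiment without pool 2. Foxp3, which marks regulatory T cells, was 0 CPM in all experiments. Of the 24 lists, those not named with a count had 0 genes called over the highest cluster, apart from 1 of the group 3 innate lymphoid cell genes in the long-term pools and 1 of the cytokine genes in T22. Naive and memory genes were lower than in CD4_Tcm-TCF7 for 6 of 6 compared in the long-term pools and 3 of 6 in T22.

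**Figure D3:**
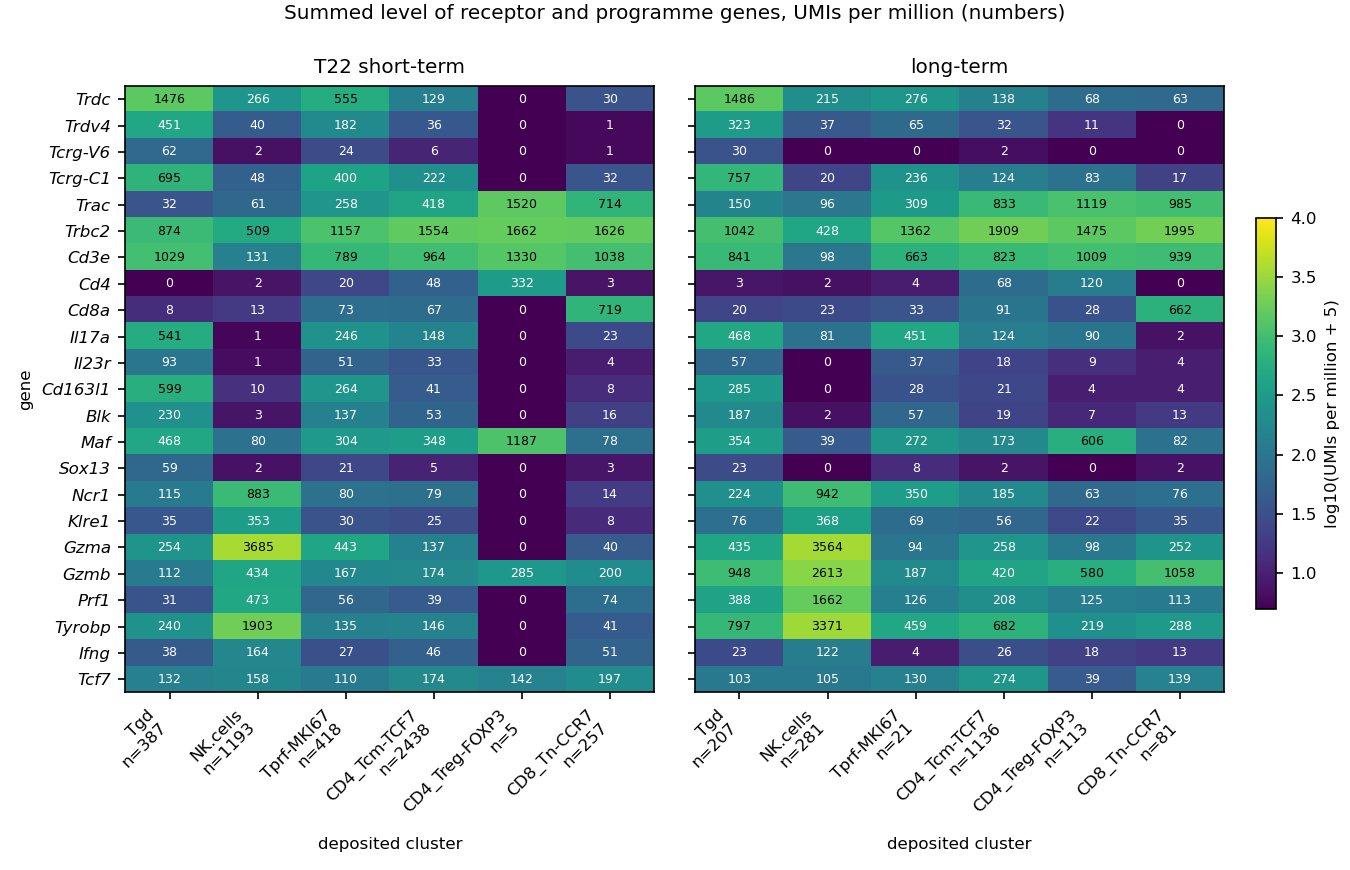
Levels in Tgd and 5 other lymphocyte clusters. The heat maps give the level (CPM, colour on a log scale) of receptor, IL-17 and cytotoxic genes in T22 and long-term pools. Trdc, Trdv4, Tcrg-C1 and Cd163l1 are highest in Tgd, with Tprf-MKI67 next in T22, and Gzma and Ncr1 are highest in NK.cells.

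The gene list published for this cluster was chosen on these samples and is not independent evidence. Of its 25 genes, all measured, 2 were highest in Tgd among the 6 clusters in each experiment and 1, Trdc, was called. Many of the others encode ribosomal proteins, such as Rps24, at 11947 CPM in long-term Tgd and 15380 CPM in CD8_Tn-CCR7.

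The 139 long-term Tgd cells with Trdc alone were set against the 33 with Trac alone. In pools 1 to 8 the Trac-only cells numbered 1, 1, 0, 1, 6, 11, 7 and 6. The Trdc-only cells numbered 18, 11, 10, 17, 17, 34, 14 and 18. The comparison is thus partly one between pools, and the part of the pools was not tested. Because the cells were split on these 2 genes, their own levels are no result. Of 7738 genes, 797 (10.3%) were at least 2-fold higher in the Trdc-only cells and 753 (9.73%) higher in the Trac-only cells, in which 1 UMI is worth 5.64 CPM. On the Trdc-only side, Gzmc was 3469 CPM against 5.64 CPM (1 UMI), Spp1, which encodes osteopontin, 2120 against 78.9 CPM, Gzma 403 against 16.9 CPM, Prf1, the pore-forming perforin, 384 against 16.9 CPM, and Ncr1 245 against 5.64 CPM. Gzmd, Gzme, Gzmf and Gzmg, near-identical neighbours of Gzmc between which reads can be split, had 277 to 1250 UMIs in the Trdc-only cells and 0 in the others. Of all long-term Tgd cells, 30 that grouped together when the Tgd cells were clustered again (sub-cluster 2) held 4172 of 4339 Gzmc UMIs, 2951 of 3125 Spp1 UMIs and 261 of 296 Ncr1 UMIs, so these genes marked a minority of cells. Trdv4 had 380 UMIs against 0, and Cd163l1 was 385 against 16.9 CPM. Cells with Trac alone were higher for Tnfrsf4, the costimulatory receptor OX40 (361 against 1.12 CPM), Cd40lg, the CD40 ligand (547 against 10.1 CPM), Cd8a and Cd8b1, the CD8 coreceptor chains (135 against 0 and 124 against 1.12 CPM), Cd5, a regulator of receptor signals (141 against 3.36 CPM), and Areg and Il13, which encode amphiregulin and IL-13 (496 against 31.4 and 78.9 against 0 CPM). Of these, Areg, Il13 and Cd40lg were among the leading genes of sub-cluster 3, and Tnfrsf4 and Cd8b1 among those of sub-cluster 4. After thinning, 14.1% and 24.6% of the cells of these sub-clusters held Trac alone, so the Trac-only cells need not be 1 population. The T cell genes of both sides included IL-17 genes: Il17a was 513 CPM in the Trdc-only and 637 CPM in the Trac-only cells. In long-term cells Il17a was 935 CPM in sub-cluster 3 and 0 CPM in sub-cluster 4. Tcrg-C1 was present on both sides, at 835 and 406 CPM. Cd3e was 841 CPM in the Trdc-only and 1353 CPM in the Trac-only cells.

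The 611 cells were clustered again with receptor genes left out, which gave 9 sub-clusters of 161 to 23 cells, numbered by size. Their leading genes define them and are no result. A sub-cluster mostly of 1 experiment may reflect that experiment, and at resolutions 0.4 and 1.2 the procedure gave 5 and 12 sub-clusters. At 1.2, at most 38 of the 109 cells of sub-cluster 2 stayed together. For sub-cluster 1 it was 82 of 161 and for sub-cluster 4 it was 43 of 68, while sub-clusters 5 to 9 kept 98.5% or more of their cells together. Sub-cluster 1 (161 cells, 158 from T22) was led by Il17f, Il17a and Hk2, and sub-cluster 3 (71 cells, 65 long-term) by Areg, Il13 and Hs3st1. Sub-cluster 2 (109 cells: 69 T22, 10 T127 and 30 long-term) was led by Gzmf, Gzmd and other granzyme genes, Spp1, Ncr1 and Prf1. Gzmc and Spp1 were 16008 and 11323 CPM in its long-term cells, beside 13.4 and 29.4 CPM in its T22 cells. Sub-cluster 4 (68 cells: 44 T22, 5 T127 and 19 long-term) was led by Mgp, Tnfrsf4, Ly6c2 and Col1a1. Sub-cluster 5 (67 cells, 59 long-term) was led by the macrophage genes Lyz2 and C1qa, and sub-cluster 6 (58 cells, 56 from T22) by Iigp1 and P2ry1. Sub-clusters 7 (28 cells) and 8 (26 cells) were led by genes of DNA replication such as Cdc6 and of mitosis such as Nusap1, and sub-cluster 9 (23 cells) by interferon-stimulated genes such as Ifit1. Of the 17 T127 cells, 10 were in sub-cluster 2 and 5 in sub-cluster 4.

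Receptor genes had not been used in the new clustering. Trdv4 was 331 to 673 CPM in sub-clusters 1, 3 and 5 to 9, but 30.4 CPM in sub-cluster 2 and 22.6 CPM in sub-cluster 4. Tcrg-V6 was 32.5 to 86.1 CPM in the former, and 2.76 and 9.04 CPM in the latter. Whether these genes had entered the deposited clustering is not given, so their levels over all Tgd cells may not be independent of the choice of cells. Within T22, Trdv4 was 31.7-fold higher in sub-cluster 1 than in sub-cluster 2 (16 to 73.5) and 23-fold higher than in sub-cluster 4 (12.5 to 48.2). Its pools ran from 508 to 858 CPM in sub-cluster 1, from 0 to 36.2 CPM in sub-cluster 2 and from 0 to 80.9 CPM in sub-cluster 4, without overlap. In the long-term pools Trdv4 was 8.94-fold higher in sub-cluster 3 than in sub-cluster 2 (4.86 to 18.3). An IL-17 list gene that had entered the clustering was divided in the same way: Blk was 194 to 355 CPM in the former group, and 2.76 and 11.3 CPM in sub-clusters 2 and 4. Il17a, of the same list, was not. It was 1140 CPM in T22 cells of sub-cluster 1 but had 0 UMIs in those of sub-cluster 6. In long-term cells it was 7.01 CPM in sub-cluster 5 and 72.9 CPM in sub-cluster 2. Trbc1, Tcrg-V1 and Trdc differed less or in the other direction. In T22 the ratio of sub-cluster 1 to sub-cluster 2 was 0.880 for Trbc1 (0.792 to 0.979), 1.03 for Tcrg-V1 (0.534 to 2.13) and 1.77 for Trdc (1.58 to 1.99), and that of sub-cluster 1 to sub-cluster 4 was 1.25 for Trdc (1.13 to 1.39) and 0.280 for Tcrg-V1 (0.179 to 0.440). Over all experiments Tcrg-V1 was highest in sub-cluster 4, at 92.7 CPM beside 3.18 to 36.4 CPM elsewhere, and Tcrg-V4 was 31.6 CPM there. This came from its T22 cells, with 40 UMIs of Tcrg-V1 (118 CPM) and 14 of Tcrg-V4. Its 19 long-term cells held 1 UMI of Tcrg-V1 (14.3 CPM) and 0 of Tcrg-V4. Long-term cells of sub-clusters 2 and 5 held 23 and 28 CPM of Tcrg-V1.

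Sub-cluster 2 had levels close to those of NK.cells for some NK genes that had entered the clustering, and other levels for the granzyme genes. In T22, its Ncr1 level was 893 CPM (NK.cells 883 CPM, ratio 1.01, 0.904 to 1.13), its Eomes level 339 CPM (ratio 0.904, 0.751 to 1.08) and its Tyrobp level, a signalling adaptor of NK receptors, 1722 CPM (ratio 0.905, 0.835 to 0.979). The ratio to NK.cells was 0.478 for Gzma (0.442 to 0.516), 0.456 for Gzmb (0.357 to 0.574) and 0.758 for Klre1, an NK receptor (0.615 to 0.925). The CD3 genes were higher than in NK.cells, 3.87-fold for Cd3e (3.3 to 4.51), 2.98-fold for Cd3d (2.44 to 3.61) and 2.63-fold for Cd3g (2.32 to 2.97). Tcrg-C1 was 126 CPM, 2.64-fold (1.91 to 3.57), while Trdv4, with 8 UMIs, was 21.4 CPM in sub-cluster 2 and 40.4 CPM in NK.cells. In its 30 long-term cells, Cd3e was 111 CPM, with a ratio to NK.cells of 1.14 (0.742 to 1.69), Cd3d 307 CPM, with a ratio of 2.27 (1.74 to 2.92), Cd3g 664 CPM, with a ratio of 1.34 (1.13 to 1.57), and Tcrg-C1 34.5 CPM, with a ratio of 1.75 (0.743 to 3.69). There Gzma was lower than in NK.cells, with a ratio of 0.548 (0.4997 to 0.5997), and Gzmb higher, with a ratio of 1.54 (1.44 to 1.65). Trdc was higher than in NK.cells in both experiments, 3.44-fold in T22 (3.07 to 3.86) and 2.86-fold in the long-term pools (2.36 to 3.44). Trdc is a marker of the cells named Tgd, so neither ratio tests the name. A Trdc UMI in every T22 Tgd cell further limits what the T22 ratio shows.

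Sub-cluster 4 differed in receptor transcripts between experiments, but a Trdc UMI in every T22 Tgd cell limits what this shows. Its 44 T22 cells held 1299 CPM of Trdc and 70.5 CPM of Trac, and its 19 long-term cells 186 CPM of Trdc and 889 CPM of Trac, with 0 UMIs of Trdv4. All 13 of those Trdc UMIs came from pool 6, so the long-term Trdc level of sub-cluster 4 was 0 CPM without it. The fibroblast genes Col1a1 and Col3a1 stood at 321 CPM each over the sub-cluster, in 11.8% and 16.2% of its cells. Sub-cluster 3 held 155 CPM of Trac beside 1508 CPM of Trdc, with Il17a at 829 CPM. In sub-cluster 5, which macrophage genes define, Trdc was 2079 CPM. Of its Lyz2 UMIs, 43 came from the 59 long-term cells, at 151 CPM, and the level over all 67 cells was 455 CPM, so its 8 T22 cells held most of them. In the long-term cells alone, Trdc was 2218 CPM and Trdv4 452 CPM. The part of the T22 cells in the remaining levels of the sub-cluster was not tested.

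**Figure D4:**
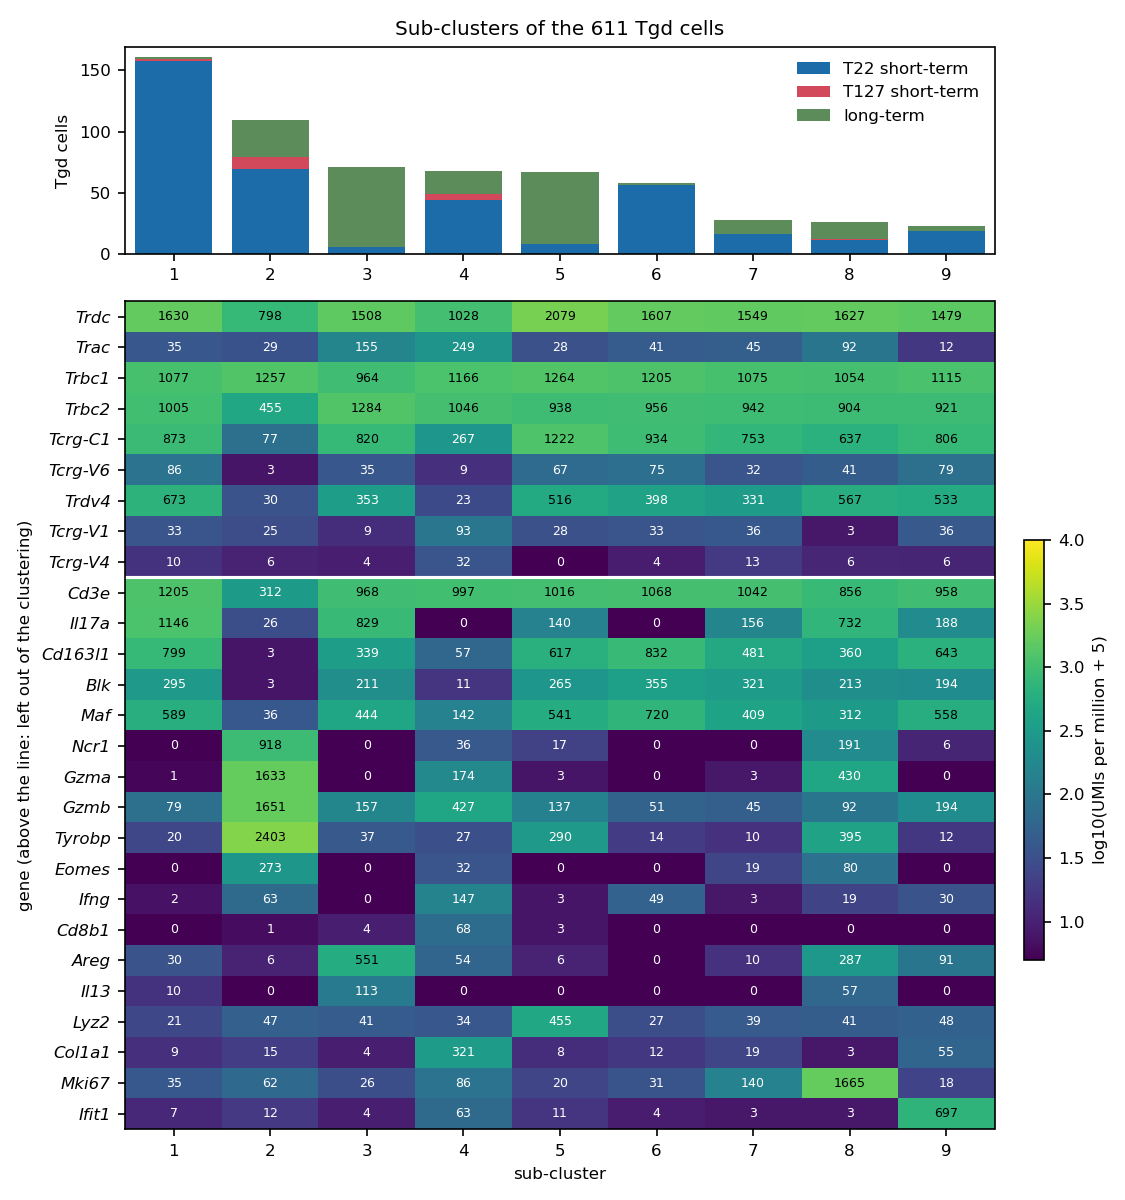
Sub-clusters of the 611 Tgd cells. The upper panel counts cells by experiment and the lower panel gives levels (CPM, colour on a log scale) of genes left out of the clustering, above the line, and of genes that entered it, below. Trdv4 and Tcrg-V6 are low in sub-clusters 2 and 4, which hold 15 of the 17 T127 cells.

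Between experiments, Tgd cells of the long-term pools had 167 of 7667 genes (2.18%) at least 2-fold higher and 693 (9.04%) lower than Tgd cells of T22. With a pseudocount of 1 CPM these counts were 254 and 1094, and with a minimum of 50 CPM 73 and 295. Tumors, treatment time and capture all differed between the experiments and cannot be told apart. Of the γδ receptor genes, 0 of 8 compared were called higher and 2, Tcrg-V1 and Tcrg-V4, lower, with a median log2 ratio of -0.65 beside -0.19 over all genes. The ratio was 1.01 for Trdc (0.955 to 1.06) and 1.09 for Tcrg-C1 (1.01 to 1.17). Tcrg-V6 was 30.2 CPM against 62.2 CPM, Tcrg-C2 138 against 248 CPM and Trdv4 323 against 451 CPM, none of them called. Trgv2, which is not on the list, was 125 against 265 CPM. For Trgv2 and Trdv4 the pool ranges did not overlap. Trac was 4.69-fold higher (3.68 to 6.02), with overlapping pool ranges, since Trac was 45.4 CPM in long-term pool 2 and 0 CPM in pool 3. Every T22 Tgd cell held Trdc, and among long-term Tgd cells with a Trdc UMI, a choice made after seeing the data, Trac was 40.6 CPM, beside 32 CPM in T22. Of the 13 cytotoxic and interferon γ genes compared, 2 were called higher and 3 lower, with a median log2 ratio of -0.17, near that of all genes. Gzmb was 948 CPM in the long-term pools (362 to 3669) and 112 CPM in T22 (74.3 to 183), an 8.45-fold difference (7.51 to 9.53) without overlap of pools. The 30 long-term cells of sub-cluster 2 held 1048 of the 1254 Gzmb UMIs, at 4021 CPM, beside 198 CPM in the sub-cluster's T22 cells, and sub-clusters 3 and 5 held 178 and 172 CPM in the long-term pools. Gzmc was 3279 CPM (0 to 6478) in the long-term pools and 6.91 CPM (1.08 to 12) in T22. Gzmc came from 12.6% of the long-term cells. Spp1, at 2362 against 4.08 CPM, was seen in 39.1%, but 2951 of its 3125 UMIs lay in the 30 cells of sub-cluster 2. NK.cells differed in the same direction, with 10311 CPM of Gzmc in the long-term pools and 59.8 CPM in T22, so this was not particular to Tgd. The globin gene Hbb-bs had 0 UMIs in T22 Tgd and 2838 CPM in long-term Tgd, at least 3011-fold higher against a floor of 3 UMIs over the group. It was also 1679 CPM in long-term Macro-M2 and 7230 CPM in long-term B.cells, so it was in every cell type shown.

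Genes lower in long-term Tgd included Nr4a3, an immediate early nuclear receptor of activated T cells, at 62 CPM against 373 CPM (inverse ratio 6.03, 4.82 to 7.63) without overlap of pools, and Cd163l1, at 285 against 599 CPM (2.1-fold, 1.88 to 2.35). CD4_Tcm-TCF7 differed likewise for Nr4a3, with 45.8 and 442 CPM. Mgp, Igfbp5 and Col1a1, genes of stromal cells, were 7.56, 14.4 and 7.56 CPM against 74.4, 106 and 57.5 CPM, with pool ranges that overlapped for Mgp and Col1a1 and not for Igfbp5. T22 pool 3 held 290 CPM of Mgp and pool 2 190 CPM of Col1a1, and without those pools the log2 ratios were -0.89 and -0.72, short of 2-fold. IL-17 genes were lower in 5 of 16 and higher in 1, with a summed level of 3069 CPM (1680 to 4010 across pools) against 4145 CPM (4017 to 4230), and the highest long-term pool lay just below the lowest T22 pool. The median log2 ratio of the list was -0.72, beside -0.19 over all genes. NK receptor genes were higher in 4 of 10 and lower in 0, with a summed level of 805 CPM (214 to 1456) against 477 CPM (325 to 712).

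In the 17 T127 cells, 1063 of 8149 genes (13%) were at least 2-fold higher and 1070 (13.1%) lower than in T22. At their depth 3 UMIs are worth 21.9 CPM, so the minimum of 10 CPM lies below 3 UMIs and counting error alone can make a call. These shares therefore cannot be set against those of the long-term cells. Without T127 pool 2 the count of higher genes was 1702, and in Tgd cells with a Trdc UMI, a choice made after seeing the data, 1657 were higher and 1752 lower. A minimum of 50 CPM gave 460 and 341, and no minimum gave 1659 lower. All 16 IL-17 genes were lower, summing to 424 CPM (0 to 1074 across pools), and Il17a, Blk and Cd163l1 had 0 UMIs. At the floor of 3 UMIs, the level of a gene with 0 UMIs may be up to 21.9 CPM. Of 9 γδ receptor genes compared, 8 were lower and 1, Trdv2-2, was higher with 6 UMIs. Every T22 Tgd cell held Trdc but only 8 of the 17 T127 cells did, which limits what the lower γδ genes show. In the T127 cells with a Trdc UMI, Trdc was 1097 CPM, beside 1476 CPM in T22. Of the NK receptor genes 9 of 10 were higher, of the cytotoxic genes 7 of 13 higher and 3 lower, and of the checkpoint genes 7 of 10 higher and 1, Pdcd1, lower. Gzmc was 1095 CPM in T127 and 6.91 CPM in T22, Prf1 643 and 30.8 CPM, and Ncr1 635 and 115 CPM. For Gzmc and Prf1 the T127 pools lay above the T22 pools, and for Ncr1 the ranges overlapped. Without pool 2, Gzmc was 1839 CPM, without pool 4 it was 481 CPM, and the summed IL-17 level was 647 CPM and 181 CPM. Counted per cell after thinning, UMIs of IL-17 genes outnumbered those of cytotoxic and NK receptor genes in 66.8% of T22 cells (61.1% to 70% across pools), 70.4% of long-term cells (63.6% to 82.6%) and 23.5% of T127 cells, which is 4 of 17 (6.81% to 49.9% interval).

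**Figure D5:**
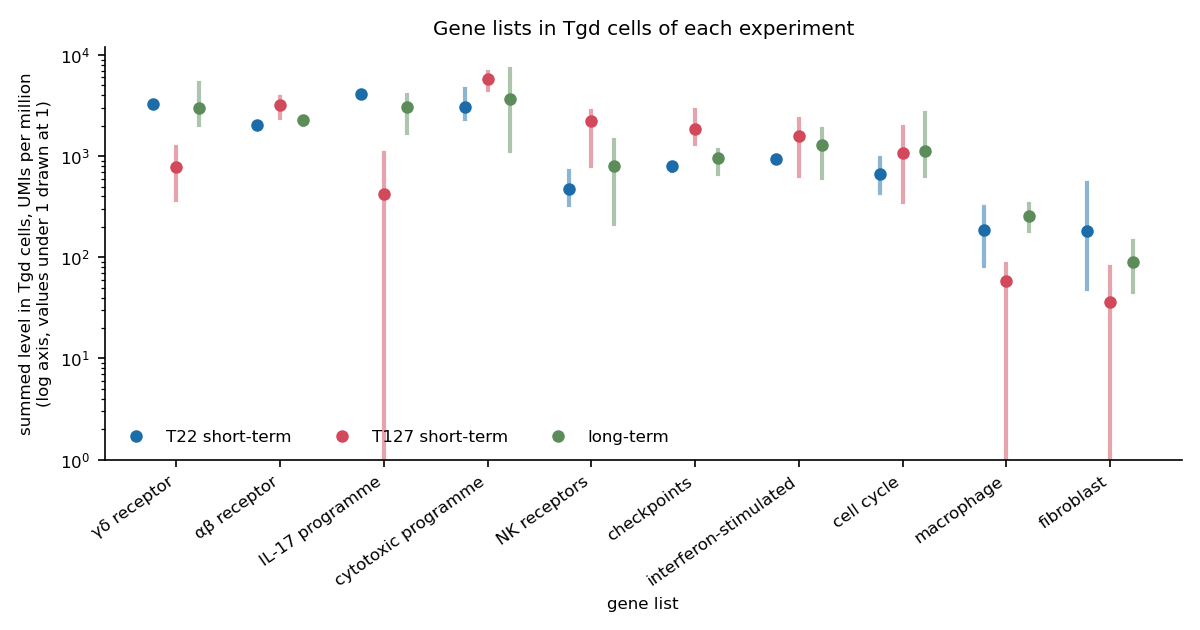
Summed levels of gene lists in Tgd cells of the 3 experiments. Each dot is the CPM of a list over an experiment and each bar the range over its pools, on a log axis. The IL-17 sum is 4145 CPM in T22, 3069 CPM in the long-term pools and 424 CPM in T127, while the NK receptor sum is 477, 805 and 2227 CPM.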

How the data were processed

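UMI counts of 32285 genes in cells of 16 pools were used as the authors deposited them, with the deposited cluster names. The authors had mapped reads to GRCm38, counting introns too, by means of Cell Ranger 6.0.0, then filtered cells on genes and mitochondrial UMIs and removed doublets with Scrublet. Doublets were not called again. The authors' normalized values were not used. Groups follow the labels. Barcodes shared between long-term pools were kept at the deepest copy. Counts were summed per cluster and divided by the total (CPM). Ratios add 5 CPM for calls, and genes needed 10 CPM in either side. Genes named from ratios needed 20 CPM and were the 25 leading genes, the 15 with the largest ratio in each direction, the 10 leading a sub-cluster, and the published list, beside the genes of 24 lists (202 entries, 185 genes). These lists and the members were chosen with earlier results of these data known. Intervals are exact Poisson, Clopper-Pearson and conditional binomial at 95%. Sub-clusters came from the Leiden algorithm (2000 variable genes, 20 principal components, 15 neighbours, resolution 0.8), with 378 receptor, mitochondrial and ribosomal protein genes left out. Scripts were tested on simulated data. Alternatives were 1000 genes per cell as a minimum, the top 5% of cells left out, other pseudocounts and minimums, thinning and each pool left out. The software was scanpy 1.11.5 with igraph 0.11.9, matplotlib 3.10.9, pandas 2.3.3, scipy 1.17.1 and numpy 2.4.6 on Python 3.11.15. Values of some listed genes are not reported here.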

Additional observations from a re-analysis of the deposited data

Results flagged for a closer look

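Of 47 sets of pools examined, 3 held a pool whose distance to its nearest neighbour was large for the range of its set, and about 1 set in 20 does so by chance. Gzmb in long-term pool 1 was 3669 CPM, beside 1150 CPM in the next pool. Gzma in T22 pool 2 was 581 CPM, beside 176 CPM in the next pool, and without pool 2 the T22 level was 150 CPM in place of 254 CPM. The summed fibroblast genes in T22 pool 2 were at 547 CPM, beside 112 CPM, and at 66.1 CPM in T22 without that pool in place of 182 CPM.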

How the results depend on the processing

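No paired analysis was possible because the labels do not say that equal pool numbers share a tumor or animal, and the results come from no test. Of the alternatives for summary results, 223 stayed close to the reported value (gene counts within 1.5 times, other values within 1 SD over pools) and 25 moved further. Leaving out 1 pool can hardly move a level or share by more than 1 SD over pools, so such runs mostly could not count as moved. The T127 Trdc level, 292 CPM without pool 2, counted as close. Requiring 1000 genes per cell gave a Tgd share of 3.04% in T22. Thinning to 2000 UMIs gave a Trdc share of 57.9% in T127 and Trdc-only cells of 82.1% in T22. Keeping only Tgd cells with a Trdc UMI, chosen after seeing the data, gave T127 levels of 1097 CPM of Trdc and 0 CPM of Trac, 40.6 CPM of Trac in the long-term pools, Trdc shares of 100% and 97.9%, and 1657 genes higher and 1752 lower in T127 than in T22. Over the highest other cluster, a minimum of 50 CPM gave 17 genes in the long-term pools, and leaving out Tprf-MKI67, or clusters under 50 cells, gave 70 there. In T22 a pseudocount of 1 CPM gave 38 genes, leaving out mitochondrial and ribosomal protein genes 31, and leaving out Tprf-MKI67 75. Between long-term and T22, 254 genes were higher and 1094 lower with a pseudocount of 1 CPM, and 73 and 295 with the minimum of 50 CPM. For T127 against T22 that minimum gave 460 and 341, and no minimum gave 1659 lower. Resolution 0.4 gave 5 sub-clusters. Leaving out 1 pool gave 1065 to 1702 genes higher in T127 than in T22, the most without pool 2. Between T127 and T22 the log2 ratio of Cd8b1 was -0.088 and that of Gzmm -0.17 without T127 pool 2 or in Tgd cells with a Trdc UMI, with ranges over the pools left out up to 4.16 and 4.08, and that of Serpinb9b was -0.088 without pool 4 and up to 4.77. Of the single genes, 1762 values kept their side of the 2-fold line, 46 fell below it, 16 rose above it and 5 reversed. Leaving out 1 long-term pool took Actn2, Prxl2a, Tcrg-C2, Wtip, Sox13, Tmem176a and Il1r1 below it over the highest cluster. Depth limits T127 most, with 17 cells.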
